A study of Homo sapiens with 12 samples.

Results

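Acetylation of histone H3 at lysine 27 (H3K27ac) marks active promoters and enhancers, and monomethylation at lysine 4 (H3K4me1) marks enhancers whether active or poised. Enhancers lie away from the promoters they act on, and in hepatocytes many of them carry liver transcription factors and sit in or beside genes for plasma proteins and metabolic enzymes. A caller of ChIP-seq peaks reports the highest point of each peak as its summit. The sites described here are distal H3K27ac summits that were listed with choline and had no counterpart without it, called choline-only summits below. They were chosen by the H3K27ac positions of both doses, and neither the scores nor H3K4me1 entered the choice. Each is a line of the 15 µM H3K27ac list on chromosomes 1 to 22 or X that lay over 2.5 kb from every end of 19974 protein-coding genes (RefSeq, GRCh38.p14) and had no 0 µM H3K27ac summit within 2 kb. There were 4619 of them among the 29305 summits of the list on these chromosomes, and among its 23509 distal summits. The 4 summit lists of the series held 760525 lines in all.

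The cells were Huh7, a human hepatocellular carcinoma line, with the wild-type genotype in all 4 libraries. They were kept for 48 h in choline-free medium, in which a B-27 supplement replaced serum, with choline chloride added back to 0 or 15 µM. H3K27ac and H3K4me1 were each profiled by ChIP-seq at both doses, with 1 library for each mark and dose. Every difference between doses is therefore between 2 libraries, has no replicate check and carries no p-value. The H3K27ac list held 37946 summits at 0 µM, and the H3K4me1 lists held 343156 at 0 µM and 349202 at 15 µM. Each summit has a score from the authors' peak caller (−log10, of either p or q), which was used only within its own list. Intervals are exact Clopper-Pearson 95% intervals and cover counting error only.

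No line of the lists shared a peak name with another line of its list, and none had the letter suffix that MACS2 gives to further summits of a peak, so each peak appears with 1 summit. Peak widths are not in the lists. A 0 µM peak that is wide enough to cover a choline-only summit, but has its own summit over 2 kb away, would not be seen, so "choline-only" describes summits and not the absence of acetylation at 0 µM. Its part in the counts was not tested. For scale, neighbours within the default joining gap of super-enhancer calling (the ROSE program), used for every count of neighbours and stretches here, were a median of 1683 bp apart for H3K27ac at 0 µM and 1562 bp at 15 µM.

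The rule looks at the outer ends of protein-coding genes, so internal and noncoding start sites count as distal. Of 34961 RefSeq promoter windows, which run from 250 bases before a gene's start to 50 after it, 22 held a choline-only summit. These were 13 windows of protein-coding genes, at a start other than the gene's outer end, and 9 windows of long noncoding RNA (lncRNA) genes. The 4 sequences below are shown because a choline-only summit lay inside each. They are printed 5′ to 3′ on the gene's strand, from RefSeq, GRCh38.p14, with matches to CCACCC (the CACCC box that KLF factors bind) and GGGCGG (the GC box) on either strand in capitals. LINC-PINT, at chr7:131106981-131107280 on the minus strand, and LINC01147, at chr14:88026263-88026562 on the minus strand, are lncRNA genes. LOC124904237, at chr18:3450607-3450906 on the minus strand, is an lncRNA gene that faces TGIF1, at chr18:3451343-3451592 on the plus strand. TGIF1 encodes a homeobox repressor of TGF-beta signalling and is shown for the 250 bases before its start.
LINC-PINT: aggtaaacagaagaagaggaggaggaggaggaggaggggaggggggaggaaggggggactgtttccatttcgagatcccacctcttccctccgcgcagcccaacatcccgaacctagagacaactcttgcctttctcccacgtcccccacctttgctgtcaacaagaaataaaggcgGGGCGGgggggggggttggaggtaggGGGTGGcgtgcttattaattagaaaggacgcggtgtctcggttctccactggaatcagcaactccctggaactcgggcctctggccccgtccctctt
LINC01147: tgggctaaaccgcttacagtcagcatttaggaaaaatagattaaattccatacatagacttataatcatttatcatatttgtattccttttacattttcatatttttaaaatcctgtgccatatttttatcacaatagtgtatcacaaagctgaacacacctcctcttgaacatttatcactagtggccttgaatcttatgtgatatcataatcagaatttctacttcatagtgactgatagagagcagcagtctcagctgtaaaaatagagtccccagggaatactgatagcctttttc
LOC124904237: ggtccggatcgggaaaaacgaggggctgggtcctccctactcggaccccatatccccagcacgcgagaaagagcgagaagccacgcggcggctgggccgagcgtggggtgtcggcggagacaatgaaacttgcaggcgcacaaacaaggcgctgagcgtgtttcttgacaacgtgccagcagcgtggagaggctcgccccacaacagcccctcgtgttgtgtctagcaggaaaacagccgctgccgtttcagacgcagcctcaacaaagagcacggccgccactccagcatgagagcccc
TGIF1: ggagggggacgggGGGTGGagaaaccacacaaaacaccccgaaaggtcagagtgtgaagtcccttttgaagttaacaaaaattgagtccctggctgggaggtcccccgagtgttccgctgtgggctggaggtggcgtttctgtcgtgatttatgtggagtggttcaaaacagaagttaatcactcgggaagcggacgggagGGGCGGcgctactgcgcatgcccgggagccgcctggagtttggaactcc

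The summit in the TGIF1 window scored 16.8, the highest of the 22, and lay 169 bases before the start. The summit of the facing LOC124904237 window scored 9.14 and lay 805 bp from it. Neither had an H3K4me1 summit within 1 kb at either dose. The LINC-PINT summit scored 9.16 and lay 3 bases before the start of this p53-induced transcript, again without H3K4me1 at either dose. In the LINC01147 window the summit scored 13.2 and lay 107 bases before the start, with H3K4me1 at both doses, scored 10.9 at 15 µM and 18.4 at 0 µM. The nearest 0 µM H3K27ac summit was 2.94 kb from the TGIF1 summit, 2.14 kb from that of LOC124904237, 2.49 kb from that of LINC-PINT and 2.08 kb from that of LINC01147, so each of the 4 lay within 3 kb of one. The lncRNA windows of LINC02983 (score 11.9), LINC02739 (11.1), LOC105369686 (9.46), LINC01719 (9.39), LINC02747 (7.12) and LOC105375446 (6.88) each held a choline-only summit as well. TGIF1, LOC124904237, LINC02747 and LOC105375446 were chosen after their values were seen.

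CCACCC was present in 5 of the 22 windows (22.7%) and in 34.3% of all 34961 windows. GGGCGG was present in 9 (40.9%) and in 45% of all. The forkhead core TGTTTAC was in 2 (9.09%, against 3.42% of all), the AP-1 site TGACTCA in 4 (18.2%, against 4.92%) and the HNF4 motif CAAAGTCCA in 0 (against 0.386%). The median GC content was 55.6% in the 22 windows and 58.7% in all. These letter matches were counted on both strands, and a match is not a binding site. CCACCC and GGGCGG matches can share bases where runs of G or C meet. The 34961 windows include starts at the outer ends of protein-coding genes, which the rule keeps out of the 22. The sets therefore differ in kind, and nothing is read from these shares or from the GC content.

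A further 3 choline-only summits lay within 1 kb of a microRNA hairpin. For each hairpin 1 mature strand is shown with the seed, bases 2 to 8, in capitals, since the seed selects a microRNA's targets. The 5p strands of MIR301A and MIR330 are not shown. No seed was shared among the 3 strands shown. The hairpins lie, in GRCh38.p14, at chr15:92904399-92904475 on the plus strand (MIR3175), at chr17:59151136-59151221 on the minus strand (MIR301A) and at chr19:45638994-45639087 on the minus strand (MIR330).
hsa-miR-3175: cGGGGAGAgaacgcagugacgu
hsa-miR-301a-3p: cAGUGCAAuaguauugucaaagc
hsa-miR-330-3p: gCAAAGCAcacggccugcagaga
The summit beside MIR3175, inside CHD2, a chromatin remodeller gene, scored 23.9 and lay 363 bp from the hairpin. That beside MIR330, inside EML2, scored 9.43 at 585 bp, and that beside MIR301A, inside SKA2, scored 8.27 at 984 bp and was chosen after its values were seen. Each had H3K4me1 within 1 kb at both doses.

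Choline-only summits made up 19.6% of the distal 15 µM summits (4619 of 23509, 95% interval 19.1 to 20.2). In the opposite direction, 34.1% of the distal 0 µM summits (9738 of 28584) had no 15 µM summit within 2 kb, in a 0 µM list that is longer. These are the counts the rule itself makes, and nothing is read from them. Close to gene ends, 728 of 5796 15 µM summits (12.6%, 11.7 to 13.4) had none at 0 µM within 2 kb. Per chromosome the share of distal summits that were choline-only ran from 15.8% on chromosome 21 (29 of 184, interval 10.8 to 21.8) through a median of 19.4% to 21.8% on chromosome 22 (81 of 372, 17.7 to 26.3). Choline-only summits were present on each of the 23 chromosomes. The interval of chromosome 10, with 16.3% (14.2 to 18.6), lay below those of chromosomes 2, 3, 4 and 12, of which chromosome 12 had 21.6% (19.6 to 23.7). Chromosome 10 was picked after the values were seen. Summits cluster, so intervals that count each one separately are too narrow, and no difference between chromosomes is read from them.

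Most choline-only summits were low in the 15 µM list. Their scores ran from 5.01 to 55 with a median of 8.27, and 30.3% scored at least 10. The other 18890 distal summits of the same list had a median of 10.8 and a maximum of 116, and 59.2% scored at least 10. The lowest score in the list was 5.01. Distal summits listed at 0 µM only were low in their own list too, with a median of 8.82 where that whole list had 10.9. The distal 15 µM list was cut by score into 10 groups of 1735 to 2951 summits, with equal scores kept together. Of the lowest group (scores 5.01 to 6.71), 37.1% were choline-only, of the fifth (9.39 to 10.3) 21% and of the highest (20.3 to 116) 3.91%. The share fell from each group to the next, so the lower a summit scored, the more often it had no 0 µM counterpart. Summits near the calling limit can pass in 1 library and miss it in the other, and the part of that in the counts was not tested.

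**Figure D1:**
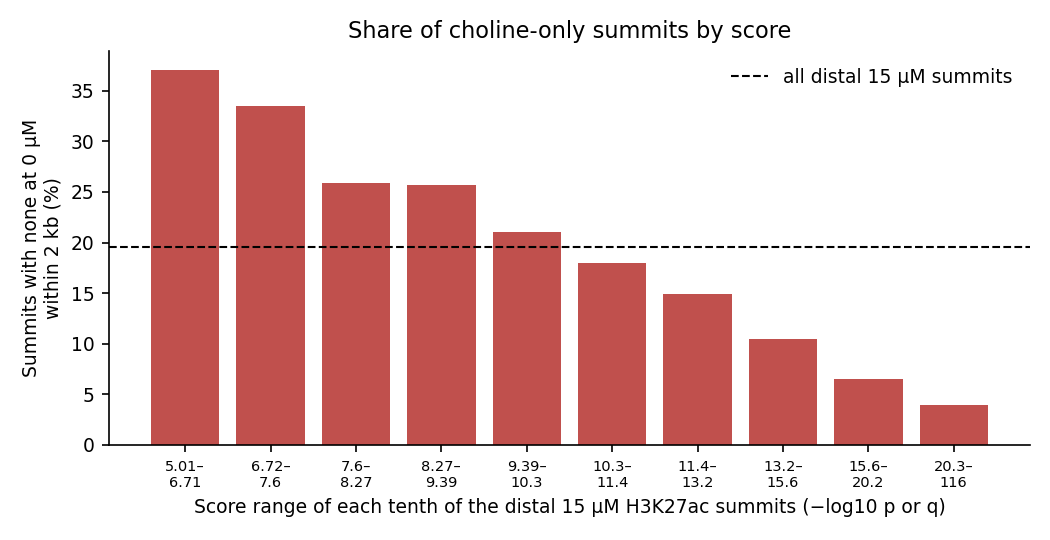
Share of distal 15 µM H3K27ac summits with no 0 µM summit within 2 kb (y axis, percent) in 10 groups of the distal list ordered by score (x axis, score range of each group, −log10 p or q). Bars fall from 37.1% in the lowest group to 3.91% in the highest, and the dashed line marks the 19.6% over all distal summits.

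The distance to the nearest 0 µM H3K27ac summit had a median of 5.51 kb, with 10% of choline-only summits within 2.27 kb and 90% within 61.7 kb. In all, 1246 lay 2 to 3 kb away (27%), 942 lay 3 to 5 kb away (20.4%) and 1698 lay over 10 kb away (36.8%, 35.4 to 38.2). Only 550 (11.9%, 11 to 12.9) lay over 50 kb from every 0 µM summit, and 251 over 100 kb. The strong ones were near the limit: of the 100 highest-scoring, 91 lay within 5 kb of a 0 µM summit, at a median of 2.46 kb. That nearest 0 µM summit had a median score of 26.2 for these 100, at the 89.9th percentile of the 0 µM list, and of 11.6 over all choline-only summits, at the 54.4th percentile. The highest-scoring choline-only summits thus mostly lay beside 0 µM summits that ranked high in their own list. Beyond 10 kb the highest score was 22.9 and the median 8.05.

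**Figure D2:**
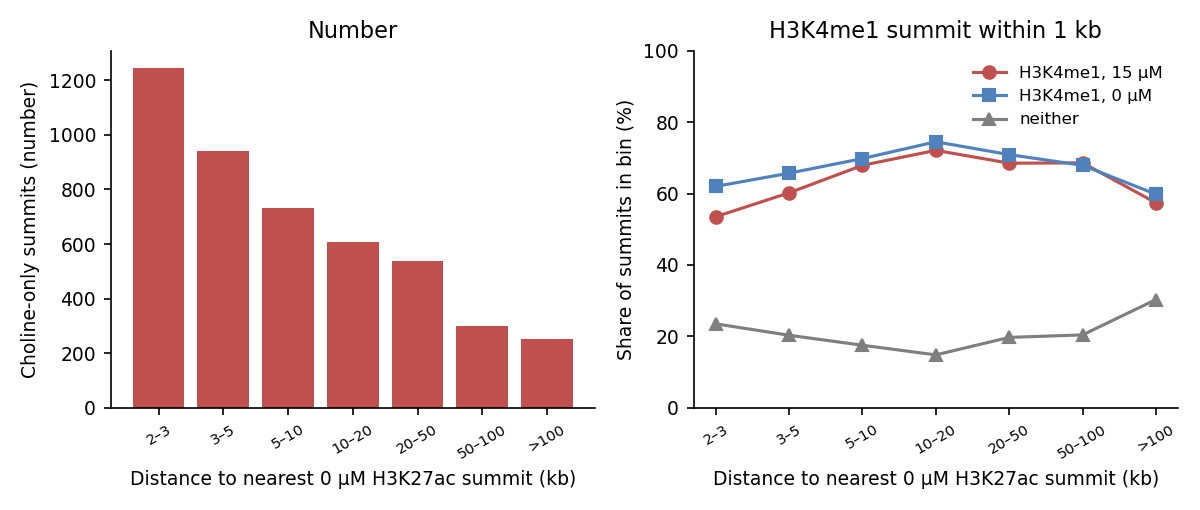
Number of choline-only summits (left, y axis) and share of them with an H3K4me1 summit within 1 kb (right, y axis, percent; circles 15 µM, squares 0 µM, triangles neither dose) in bins of distance to the nearest 0 µM H3K27ac summit (x axes, kb). Counts fall from 1246 at 2 to 3 kb to 251 over 100 kb, and the share with H3K4me1 at 15 µM is 53.5% in the first bin, 72.1% at 10 to 20 kb and 57.4% in the last.

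At the 2 kb limit itself, 102 choline-only summits lay at most 50 bp outside it and 86 other distal summits at most 50 bp inside it. The highest-scoring of those outside lay in GPAM (score 38.1, 2045 bp from a 0 µM summit), which encodes a glycerol-3-phosphate acyltransferase, in SIPA1L3 (35.6, 2030 bp) and 205 kb from IRF2BP2 (33.3, 2013 bp). Just inside it lay summits near SPINK5 (42, 1958 bp), AGBL3 (31.4, 1970 bp) and SEC14L2 (29.7, 1963 bp). The scores ran from 33.3 to 38.1 outside the limit and from 29.7 to 42 inside it.

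The 10 highest-scoring choline-only summits, taken at most once per 200 kb, had scores of 38.6 to 55 and lay 2.12 to 4.59 kb from a 0 µM summit. The first lay inside DIP2B (chromosome 12, position 50532789, score 55), 27.8 kb from the gene's end. A second with the same score lay inside NHSL1, where the nearest gene end was that of HEBP2 (chromosome 6, position 138503631). The others were nearest to RPS6KA3, a growth factor-activated kinase (chromosome X, position 20438117, score 51.2), PLD1, PID1, WWOX, BMP2, XBP1, MBNL1 and FN1. PLD1, whose product releases choline from phosphatidylcholine, held its summit inside the gene, 4.13 kb from the end (chromosome 3, position 171806356, score 49), and a 0 µM summit of score 8.11 lay 2.41 kb away. At FN1, the fibronectin gene, the choline-only summit scored 38.6 and the 0 µM summit 2.12 kb away scored 87.2 in its own list. XBP1, a regulator of the secretory pathway under endoplasmic reticulum stress, had its summit 18.3 kb outside the gene (chromosome 22, position 28818913, score 39.6). That summit had an H3K4me1 summit within 1 kb at 15 µM, scored 31.6, and none at 0 µM. Of these 10, 7 had no H3K4me1 summit within 1 kb at either dose.

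Far from any 0 µM summit the scores were lower. Among summits over 50 kb away, the highest lay beyond MRPS6 (chromosome 21, position 34201827, score 21.5, 127 kb away), in ACSM5, a medium-chain acyl-CoA synthetase gene (chromosome 16, position 20426988, 18.7, 151 kb), in APBB2 (18.7, 50.1 kb), near LOC124903856 (17.3, 131 kb) and in PDS5A, a cohesin regulator gene (17.3, 56.5 kb). None of the 5 had another 15 µM H3K27ac summit within the joining gap. Each carried H3K4me1 within 1 kb at 15 µM, and 4 of them at 0 µM too.

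Choline-only summits stood more often alone than the other distal ones. With no other 15 µM summit within the joining gap there were 1574 (34.1%, 32.7 to 35.5), against 11.2% (10.8 to 11.7) of the others, and with at least 5 there were 1021 (22.1%, 20.9 to 23.3), against 39.6% (38.9 to 40.3). The median number of such neighbours was 2 and 3. The rule keeps sites with no 0 µM summit within 2 kb, while each of the others has one. The choice itself can thus favour sites with few neighbours, and its part in these shares was not tested. Choline-only summits lay inside a protein-coding gene in 67% (65.7 to 68.4), the others in 64% (63.4 to 64.7) and the distal summits listed at 0 µM only in 61.7% (60.7 to 62.7). The median distance to a gene end was 33 kb, 35.2 kb and 34.6 kb in the same order. Within 1 kb of an end of an lncRNA gene there were 140 (3.03%, 2.56 to 3.57), against 4.2% (3.92 to 4.49) and 4.78% (4.36 to 5.22). Exons and introns are not in the gene table used, so positions are given by gene span.

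H3K4me1 was not used to choose the sites. Of the choline-only summits, 62.5% (2889, interval 61.1 to 63.9) had an H3K4me1 summit within 1 kb at 15 µM and 66.9% (3092, 65.6 to 68.3) at 0 µM. Windows of 1 kb around H3K4me1 summits covered 19.3% of the chromosome span at 15 µM and 18.8% at 0 µM. Both doses had one at 2307 sites (49.9%, 48.5 to 51.4), and 945 sites (20.5%, 19.3 to 21.7) had none at either dose. Most of the choline-only summits therefore had an H3K4me1 summit in the 0 µM list too.

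The sites with H3K4me1 at 15 µM only numbered 582 (12.6%, 11.7 to 13.6), where all distal 15 µM summits had 13.4%. Those with H3K4me1 at 0 µM only numbered 785 (17%, 15.9 to 18.1), where all distal 15 µM summits had 19.9%. The interval at 15 µM only includes the 13.4%, and that at 0 µM only lies below the 19.9%. Counted with or without the other dose, 57.8% of the other distal 15 µM summits had H3K4me1 at 15 µM and 64.9% at 0 µM. Of the distal summits listed at 0 µM only, 66.6% and 70.7% had it. Other distal 15 µM summits had H3K4me1 at both doses in 44.2% (43.5 to 44.9), at 15 µM only in 13.6%, at 0 µM only in 20.7% and at neither in 21.5%. The distal summits listed at 0 µM only had 54.1%, 12.6%, 16.6% and 16.7%. H3K4me1 at 15 µM only thus had a share at choline-only summits (interval 11.7 to 13.6) that was not above that at the other distal summits (13.2 to 14.1).

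**Figure D3:**
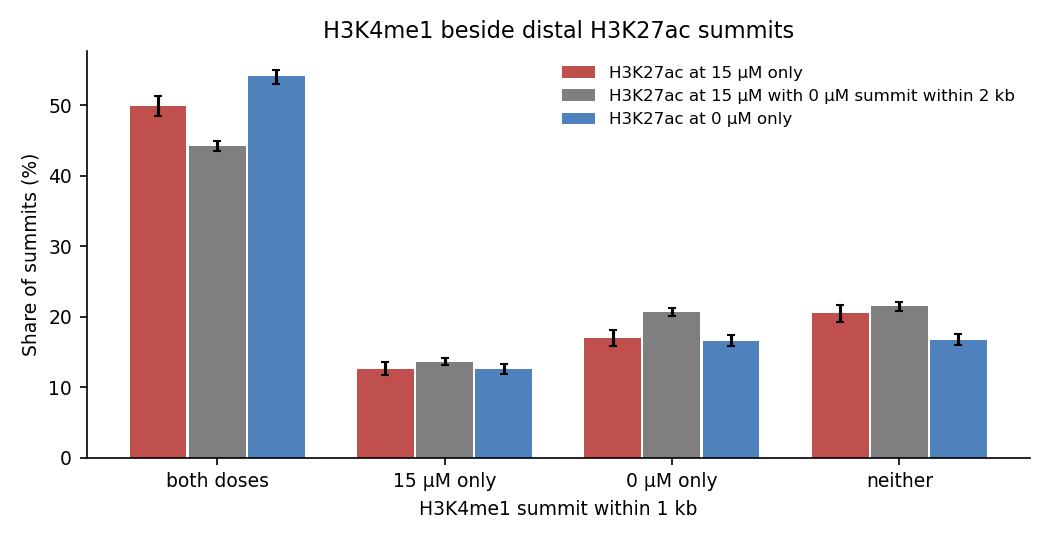
Share of distal H3K27ac summits (y axis, percent) with an H3K4me1 summit within 1 kb at both doses, at 15 µM only, at 0 µM only or at neither (x axis), for choline-only summits (red), other distal 15 µM summits (grey) and distal summits listed at 0 µM only (blue). Bars are shares and error bars exact 95% intervals; at 15 µM only, the 3 sets stand at 12.6%, 13.6% and 12.6%.

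Where H3K4me1 was present, its scores beside choline-only summits were lower than beside the other distal 15 µM summits. At 15 µM the highest H3K4me1 score within 1 kb had a median of 9.5, at the 88.2nd percentile of its list, against 16.5 at the 95.5th percentile beside the other distal summits. At 0 µM the medians were 8.4 (86.2nd percentile) and 12.8 (94.2nd). Within groups 1 to 9 of H3K27ac score the order was the same: in the lowest the 15 µM medians were 7.35 and 14.7, and in the sixth (10.3 to 11.4) 9.51 and 15.9. In the highest group they were 21.8 for 92 choline-only summits and 19.8 for the others, the reverse order. There the share with H3K4me1 at 15 µM was 40.2%, against 53.2% of the others. Distal summits listed at 0 µM only had median H3K4me1 scores of 10.4 (89th percentile) at 15 µM and 8.5 (87.8th) at 0 µM. The lower H3K4me1 scores were thus not particular to choline-only summits.

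The share with H3K4me1 changed with the distance to 0 µM H3K27ac. At 2 to 3 kb it was 53.5% at 15 µM and 62% at 0 µM, at 10 to 20 kb 72.1% and 74.5%, and over 100 kb 57.4% and 59.8%. Sites with neither were 23.5%, 14.8% and 30.3% of these bins. Among the 100 highest-scoring choline-only summits, 39 had H3K4me1 at neither dose.

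By score, the first choline-only summits with H3K4me1 at 15 µM only were those of XBP1 above, SIPA1L3 (35.6, H3K4me1 score 22.1), ALB (35.4, 2.93), a second summit in NHSL1 nearest to HEBP2 (29.2, 40) and ENPP1 (27.9, 37). ENPP1 encodes a membrane pyrophosphatase that dampens insulin signalling. Those with H3K4me1 at 0 µM only included summits in WWOX (40.3, H3K4me1 score 22.5), 688 kb from MCTP2 (33.3, 10.4), near IRF2BP2 (33.3, 21.1) and in SLC38A11 (33.3, 27.7). Those with neither were the summits of DIP2B, RPS6KA3, PLD1, PID1 and BMP2.

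Choline-only summits joined over the default gap formed 3663 stretches, of which 3000 held 1 summit (64.9% of the sites). Only 22 stretches held 5 or more, with 137 summits in all. Of the 22, 5 lay at ALB (serum albumin), FGA (a fibrinogen chain), GC (the vitamin D carrier), SERPIND1 (heparin cofactor II) and F5 (coagulation factor V), which hepatocytes secrete. These 5 were picked out after the stretches had been seen. How often stretches of other distal summits lie at such genes was not counted, so nothing is read from the 5. GC, SERPIND1 and F5 are not on the hepatocyte gene list. Over the hepatocyte gene list, 26.3% of distal 15 µM summits were choline-only (interval 17.9 to 36.1), which includes the 19.6% of all distal summits, and 22.4% without ALB. In 6 of the 22 spans the 0 µM list had no summit, but within the joining gap of each span it had at least 1.

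The ALB stretch held 9 choline-only summits in 11.3 kb of the gene (chromosome 4, 73407027 to 73418345), and the 0 µM list had 0 summits there. Their scores ran from 7.35 to 35.4 with a median of 17.3, above the 8.27 of all choline-only summits. The 0 µM list had a summit of score 60.6 at the lower-coordinate end of ALB and one of 25.5 near its other end, on both sides of the stretch. Beyond the gene, 28.30 kb from its lower-coordinate end, the 0 µM list had a summit of 210, which matches the highest score of that list. The 15 µM list had a summit of 82.7 at 28.22 kb. With flanks of the joining gap the counts were 19 at 15 µM and 7 at 0 µM. H3K4me1 had 2 summits in the span at 15 µM and 5 at 0 µM, and 4 of the 9 acetylation summits had H3K4me1 within 1 kb at neither dose. A further pair of choline-only summits nearest to ALB lay outside the gene, 61.8 kb and 54.3 kb from its end, with scores of 27.5 and 11.9.

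AFP, the alpha-fetoprotein gene next to ALB, held 3 choline-only summits, at 73445583, 73448286 and 73448869, scored 24, 19.1 and 18.7. The nearest 0 µM summit, scored 14.8, lay 3.06 to 6.34 kb away. Of the distal summits nearest to AFP, 9 were listed at 15 µM and 4 at 0 µM, and none at 0 µM only. For ALB the figures were 32, 15 and 1. The fibrinogen stretch held 6 choline-only summits in 10.5 kb (chromosome 4, 154587993 to 154598512), scored 7.37 to 33.9, with 1 summit of the 0 µM list in the span, and with flanks 16 summits at 15 µM and 14 at 0 µM. The GC stretch held 5 in 6.02 kb (chromosome 4, 71780338 to 71786360), scored 8.05 to 18.7, with 0 at 0 µM in the span and 4 with flanks, against 8 at 15 µM. The F5 stretch held 5 in 7.98 kb, scored 7.78 to 14.7, and the SERPIND1 stretch, which extends into PI4KA, 6 in 24.9 kb, scored 7.69 to 12.7. Their spans held 1 and 5 summits at 0 µM.

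Other long stretches lay in genes of signalling. IRS1, the insulin receptor substrate, had 9 in 31.3 kb (chromosome 2, 226738555 to 226769857) with scores of 5.37 to 15, interleaved with 5 summits of the 0 µM list. PTPRK, a receptor tyrosine phosphatase, had 8 in 28 kb (chromosome 6, 128467987 to 128495980) scored 5.13 to 29.7, with 1 at 0 µM. SIPA1L3, a GTPase-activating protein for Rap, had 7 in 19.6 kb (chromosome 19, 37943850 to 37963452) scored 5.03 to 35.6, with 0 at 0 µM, and its farthest summit lay 18 kb from a 0 µM summit. ABHD2, a lipase gene whose summits were nearest to LOC124903573, had 7 in 35.3 kb with 6 at 0 µM. TLE1, a Groucho corepressor, had 7 in 14.1 kb beyond the gene and 5 in 30.6 kb inside it. PRKAA1, the catalytic subunit of AMP-activated kinase, had 5 (chromosome 5, 40764074 to 40776559) with 0 at 0 µM, and SMAD7, an inhibitor of TGF-beta signalling, 5 in 15.2 kb with 4.

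**Figure D4:**
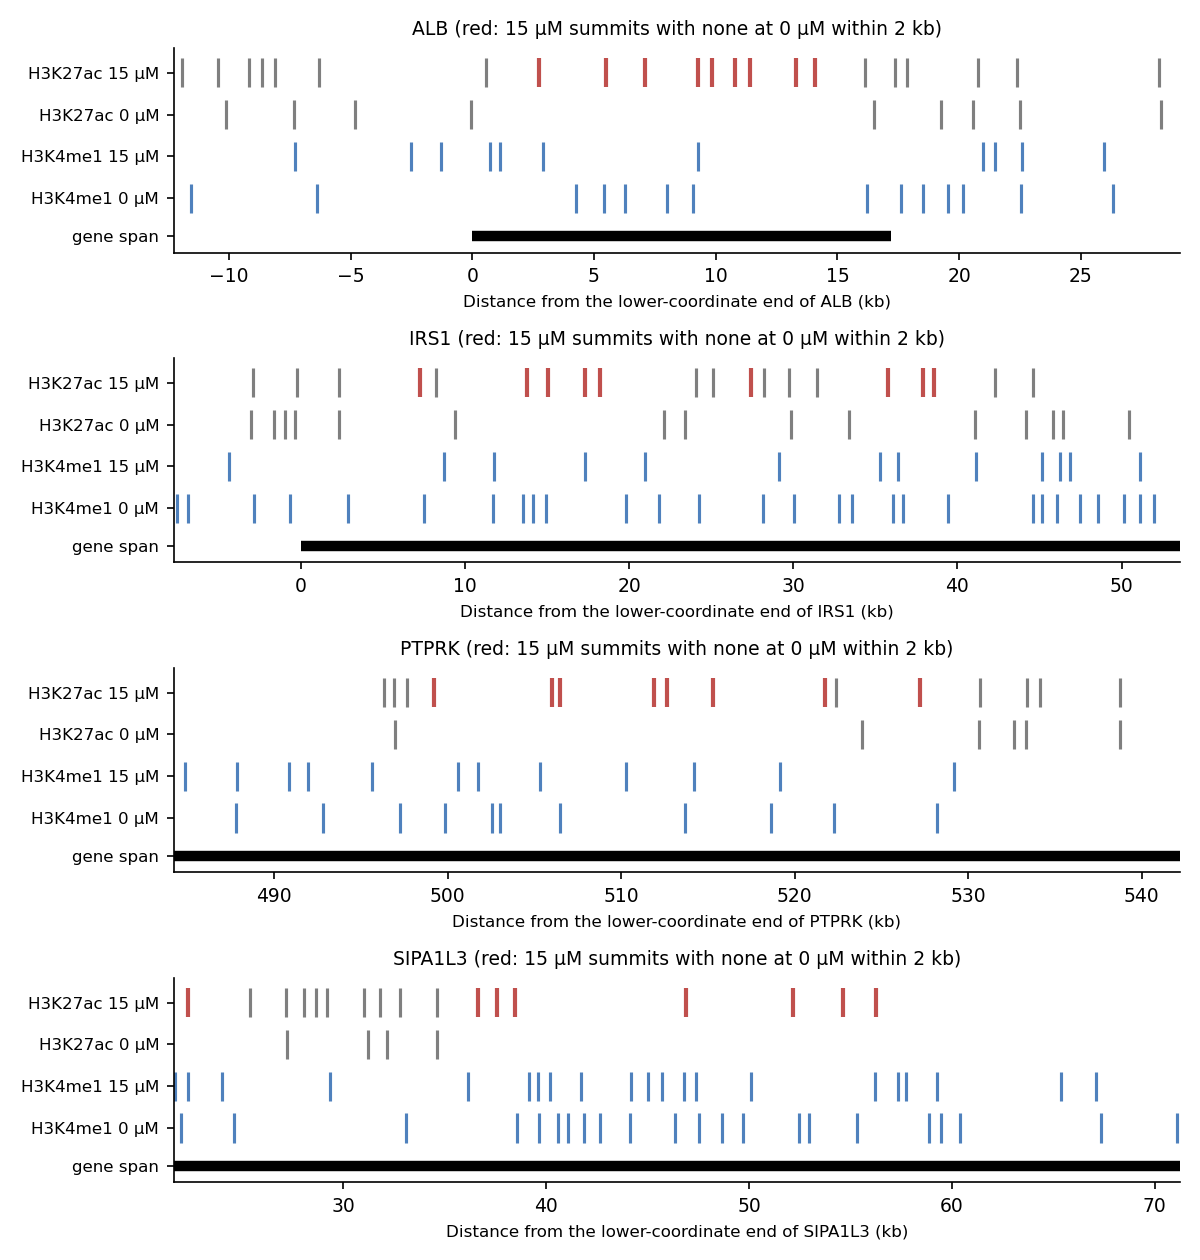
Summits of the 4 lists (rows; each tick is 1 summit, choline-only summits in red, other H3K27ac in grey, H3K4me1 in blue) around the stretches at ALB, IRS1, PTPRK and SIPA1L3, with distance from the gene's lower-coordinate end on the x axes (kb) and the gene span in black. In ALB the 9 red ticks lie between 2.74 and 14.06 kb, where the 0 µM H3K27ac row is empty, whereas in IRS1 the rows interleave.

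Among the 1698 summits over 10 kb from any 0 µM summit, runs were short. They formed 1546 stretches, of which 1416 held 1 summit, 20 held 3 or more and the longest held 4. Those of 4 lay in PPP4R1, a phosphatase subunit gene (chromosome 18, 9557589 to 9569481, scores 7.44 to 12.3, at least 26.4 kb from a 0 µM summit), and in SIPA1L3. In PPP4R1, 2 of the 4 had H3K4me1 within 1 kb at 15 µM and 0 at 0 µM. In APC, the scaffold of the beta-catenin destruction complex, 3 lay within 112795931 to 112797534 on chromosome 5, scored 8.17 to 14.6 and at least 87.2 kb from a 0 µM summit. In JAZF1, 3 scored 7 to 9.16 at 64.5 kb or more. These genes were chosen after their values were seen.

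By nearest gene end, 2448 genes had at least 1 choline-only summit, 1493 of them exactly 1, and 159 had 5 or more. The genes with the most were PTPRK and TLE1 with 16 each, MECOM with 15, GPC6 and IRS1 with 14, and RPS6KA3, NFIA and CITED2 with 13. MECOM and NFIA are transcription factors, GPC6 is a cell-surface glypican, and CITED2 binds the acetyltransferases CBP and p300. These genes also had summits listed at 0 µM only: 14 each for PTPRK, TLE1, MECOM and GPC6, 8 for IRS1, 12 for RPS6KA3, 10 for NFIA and 15 for CITED2. Their distal totals were 57 at 15 µM and 58 at 0 µM for PTPRK, 54 and 51 for TLE1, 51 and 52 for MECOM, 56 and 54 for GPC6, 37 and 32 for IRS1, 80 and 75 for RPS6KA3, 55 and 42 for NFIA, and 77 and 87 for CITED2. NFIA thus had the widest gap of the 8 in favour of 15 µM, and CITED2, PTPRK and MECOM had more at 0 µM.

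Of the 159 genes with 5 or more, 96 had more choline-only than 0 µM-only summits, 49 had fewer and 14 had equal numbers. These genes were selected on their choline-only summits, which favours an excess of them, so nothing is read from this tally. Over all genes there were 4619 choline-only and 9738 0 µM-only distal summits. FNDC3B had 9 and 26. In the other direction, WWOX, an oxidoreductase gene spanning a fragile site, had 12 and 0, with 39 distal summits at 15 µM and 21 at 0 µM. ALB had 11 and 1, EGFR 10 and 4, COBLL1 10 and 4, SIPA1L3 9 and 2, NR2F1 9 and 3, and ADGRG6 9 and 3. Besides WWOX, those with 5 or more and none in the opposite direction were PDS5A with 6, SERPIND1 with 6, and SLC17A8, FGA, MEF2C, STARD7, FBXO38 and FOXK2 with 5 each. STARD7 carries phosphatidylcholine to mitochondria, and its 5 scored up to 11.9. All 6 PDS5A summits lay over 10 kb from a 0 µM summit. Another 0 µM summit can lie near a gene end or be nearest to another gene, and is then not counted for a gene. By this count, 501 of the 2448 genes with a choline-only summit had no distal 0 µM summit. The count in the opposite direction is not given here, so nothing is read from the 501. These genes had at most 3 choline-only summits. Those with 3 were APC, CDK7, KLHL6, AADAC and STAB2. Except for the genes with the most, these genes were chosen after their values were seen.

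**Figure D5:**
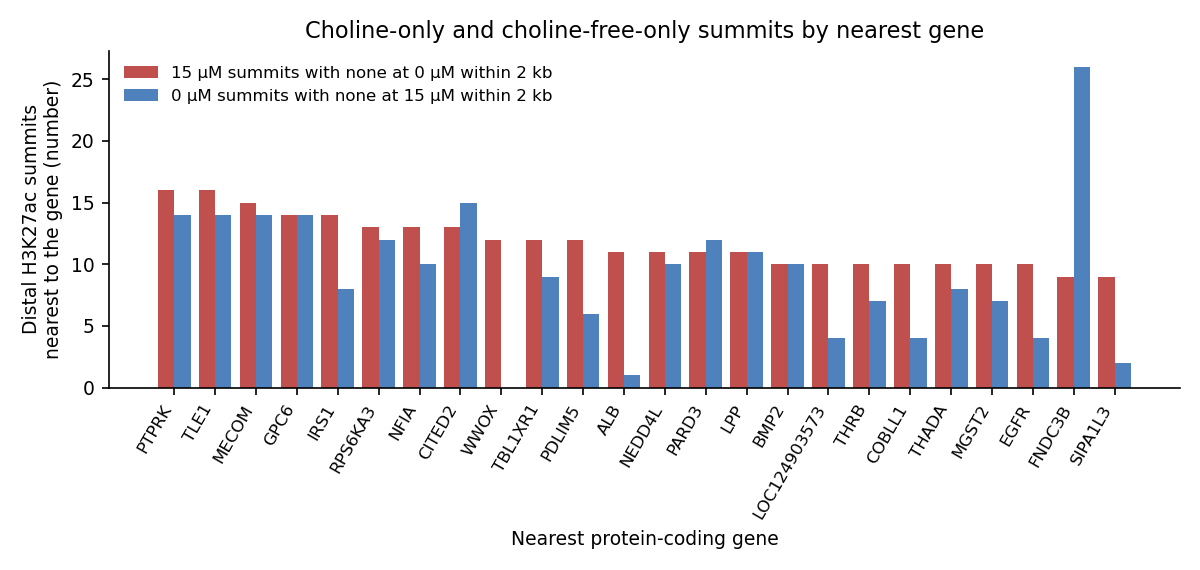
Distal H3K27ac summits (y axis, number) by nearest protein-coding gene (x axis) for the 24 genes with the most choline-only summits, with choline-only summits in red and summits listed at 0 µM only in blue. PTPRK has 16 and 14, ALB 11 and 1, WWOX 12 and 0, and FNDC3B 9 and 26.

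Gene lists were read by the share of their distal 15 µM summits that were choline-only, beside 19.6% over all of them. Summits cluster and the lists were written with earlier results of these data known, so the intervals are descriptions. The 20 lists held 443 distinct genes, 129 of which were nearest to a choline-only summit. The interval included 19.6% for 17 lists and lay below it for 3. Liver transcription factors had 30 of 252 (11.9%, 8.18 to 16.6), mesenchymal and migration genes 9 of 97 (9.28%, 4.33 to 16.9), and YAP and TEAD targets 8 of 78 (10.3%, 4.53 to 19.2). It lay above for 0 lists.

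Hepatocyte genes had 26 of 99, from 10 of 30 genes, and 15 of 67 (interval 13.1 to 34.2) without ALB. They were led by ALB with 11, FGA with 5, and TAT, tyrosine aminotransferase, with 3 scored up to 37.3. FGG, another fibrinogen chain, had 1, scored 33.9. Of the liver transcription factors, FOXA2 and NR1H4, the bile acid receptor, had 5 each, NR5A2 had 4 and HNF4A 3. NR1H4 had 1 summit at 0 µM only, FOXA2 had 8 and HNF4A 7. Oncofetal genes had 15 of 106 (14.2%), among them LIN28B with 6, HMGA2 with 4 and AFP with 3.

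Among the genes of choline and phosphatidylcholine, 14 of 66 distal summits were choline-only (21.2%, 12.1 to 33), at 5 of 29 genes. PLD1 had 6, the choline transporter SLC44A1 had 3 scored up to 15.8, and choline kinase CHKA had 2, with 7, 4 and 3 at 0 µM only. PCYT1A, which catalyses the rate-limiting step of phosphatidylcholine synthesis, had 2, with 1 at 0 µM only. The betaine, methionine and folate list had 5 of 26 (19.2%, 6.55 to 39.4), at 4 of 24 genes. BHMT2, which remethylates homocysteine, had 2, scored up to 11.4, both over 10 kb from a 0 µM summit and both with H3K4me1 at each dose. CTH, cystathionine gamma-lyase, had 1 (9.14), MAT1A, which makes S-adenosylmethionine in liver, had 1 (7.13) and SARDH had 1 (8.27). BHMT2, CTH and MAT1A were the nearest gene of no distal 0 µM summit. The CTH and MAT1A summits nevertheless lay 3636 and 4241 bp from a 0 µM summit, which was near a gene end or assigned to another gene.

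KLF5, a zinc-finger transcription factor, is named in the title of the series. It had 5 choline-only summits among 17 distal ones, with 3 at 0 µM only. A pair lay inside the gene (chromosome 13, positions 73063826 and 73070210, scores 12 and 7.48, 2.21 and 8.59 kb from a 0 µM summit) and 3 outside, 16.4 kb, 118 kb and 185 kb from its ends (positions 73038571, 73195403 and 73262087, scores 9.14, 7.09 and 8.03). The 5 KLF5 summits had H3K4me1 within 1 kb at both doses. The KLF and SP list as a whole had 24 of 126 (19%, 12.6 to 27), SP8 with 5, SP4 with 4 and KLF12 with 3.

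In signalling lists the shares were close to that of all distal summits. Wnt and LGR genes had 48 of 212 (22.6%, 17.2 to 28.9), led by TLE1 with 16, LGR4, an R-spondin receptor, with 9 and ZNRF3, the ligase it opposes, with 8. Growth factors and receptors had 45 of 207 (21.7%, 16.3 to 28), with IRS1 at 14, EGFR at 10 and BTC, a ligand of EGFR, at 7. TGF-beta, BMP and ID genes had 32 of 151 (21.2%, 15 to 28.6), with BMP2 at 10 and SMAD7 and SMAD6 at 5 each. The unfolded protein and amino acid list had 18 of 81 (22.2%, 13.7 to 32.8), with SLC38A2, an amino acid transporter, at 7, SLC7A11 at 3 and SESN2 at 3. XBP1 had 2, scored up to 39.6, and none at 0 µM only.

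Sterol and fatty acid synthesis had 21 of 118 (17.8%, 11.4 to 25.9), with ACSL4 at 4, ACSL3 at 3 and SCD at 2. Cell cycle genes had 11 of 66 (16.7%), with CDKN2B at 3, MCM3 at 2 and CCND1 at 2. Oxidative stress genes had 8 of 61 (13.1%), with SLC7A11 at 3, NFE2L2 at 2 and GCLC at 1, and inflammation genes 6 of 32 (18.8%), with NFKB1 at 3, IL1R1 at 1 and CXCL2 at 1. FN1 had 5, ZEB2 2 and TGFBI 1 of the mesenchymal list, and F3, CRIM1 and AMOTL1 had 2 each of the YAP and TEAD targets. Of the markers of other cells, those of blood, of stroma and endothelium, and of neurons and muscle had few distal summits. Biliary markers had 8 of 54 (14.8%), among them CFTR with 4 and EPCAM with 1. Stromal and endothelial markers had 7 of 18 (38.9%, 17.3 to 64.3), with STAB2 at 3, COL1A2 at 2 and LUM at 1. Blood cell markers had 2 of 5, at CD3E and PTPRC, and neuron and muscle markers 2 of 20, both at SYT1. The 3 summits nearest to STAB2 lay inside NT5DC3.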

How the data were processed

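ChIP-seq summit lists of H3K27ac and H3K4me1 in Huh7 cells at 0 and 15 µM choline were used, 1 library each; the other 8 of the 12 samples were not analysed here. The authors deposited 1 line per summit with its position and a −log10 score. Whether that score is from p or q is not given in the sources used here. Its lowest value was 5.01 for H3K27ac, and 1.31 (0 µM) and 1.3 (15 µM) for H3K4me1. The submitters' processing notes name the build hg38 and the tools MACS2, Bowtie, deepTools and Picard, with no version. How peaks were called, whether an input was used and the read depth are likewise not stated there. H3K4me1 peak names carry no dose, so doses were taken from the labels.

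Only chromosomes 1 to 22 and X were used, with 1-based positions. Distances were computed with Python 3.11.15, numpy 2.4.6, pandas 2.3.3 and scipy 1.17.1, and gene ends came from RefSeq, GRCh38.p14. Each summit was assigned to the nearest end of a protein-coding gene. Named genes are the nearest genes of the highest-scoring choline-only summits (10 of them all, and 5 each over 50 kb from 0 µM summits, with H3K4me1 at 15 µM only, at 0 µM only and at neither dose), the 8 genes and 5 stretches with the most, up to 3 per gene list, noncoding and microRNA starts, KLF5, ALB and AFP; others were chosen after their values were seen. Some genes that the rule names are not reported here. The sites and lists were chosen with earlier results of these data known. The counting steps were tested on simulated data. Stretches joined choline-only summits over the default gap of the ROSE program, which lies between the 5 and 25 kb also tried. Alternatives changed distances, score limits, list lengths and gene assignment.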

Additional observations from a re-analysis of the deposited data

How the results depend on the processing

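No paired analysis was possible because each mark and dose had 1 library; for the same reason no library could be left out. The number of choline-only summits (4619, 19.6% of distal summits) followed the distance chosen: with no 0 µM summit within 1 kb it was 7887 (33.5%), within 5 kb 2431 (10.3%), within 10 kb 1698 (7.22%) and within 50 kb, a distance chosen after seeing the data, 550 (2.34%). Median scores at these distances were 9.11, 8.17, 8.05 and 7.82 for choline-only summits, and 11.2, 10.7, 10.7 and 10.3 for the others, so the choline-only median was lower at each. With lists of equal length the share was 24.9%, and with a score of at least 10 there were 1401 (11.1%). The count was 4192 over 5 kb and 3693 over 10 kb from gene ends, and 4184 with ends of all annotated genes. The H3K4me1 shares at 15 µM, at 0 µM, at both and at neither were 41.8%, 45.6%, 25.8% and 38.5% within 500 bp, 81.1%, 83.7%, 73.5% and 8.72% within 2 kb, and 45%, 48%, 32% and 39% with H3K4me1 scores of at least 5. Over 5 kb from 0 µM summits they were 68.1%, 70%, 57% and 19%, and over 10 kb 68.1%, 70% and 57.8%, with 19.6% at neither. Among summits scoring at least 10, 69.5% had H3K4me1 at 0 µM and 18% at neither dose. The share at 0 µM was above that at 15 µM under each of these settings. Joining over 5 kb left 75.2% alone and 7 stretches of 5 or more, and over 25 kb 54.6% and 50. Assigning summits to the gene that holds them gave ABHD2 8 in place of 0. Within 50 kb of a gene end, rather than by the nearest end, the genes with a choline-only summit numbered 10 in place of 5 for choline and phosphatidylcholine, 9 in place of 4 for betaine, methionine and folate, 8 in place of 5 for oncofetal genes, 7 in place of 4 for inflammation, and 7 in place of 11 for growth factors and receptors. The causes of these changes, beyond the settings' own construction, were not tested. Read depth is unknown, so whether sequencing depth limits the 0 µM list at these sites was not tested.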
